A study of Mus musculus with 8 samples.

Results

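Histone acetyltransferases are the enzymes whose action the protein of the deleted gene inhibits, and 10 of their genes were followed across the 4 groups of the study: Ep300, Crebbp, Kat2a, Kat2b, Kat5, Kat6a, Kat6b, Kat7, Kat8 and Hat1. They were chosen by name from 23146 named genes. The row of each gene was the RefSeq transcript with the largest total count. All 10 had a row, and all 10 passed the filter on low counts that left 16342 genes to test. RNA was sequenced from mouse embryonic epidermis peeled off the dermis, at embryonic stages E15.5 and E17.5. Knockout embryos carried floxed alleles of Noc2l (the gene of the protein NIR) together with a Krt14-Cre transgene. Its recombinase is made in keratinocytes of the basal layer, so cells of the sample that do not descend from these keep the gene. Control embryos carried the floxed alleles, so all groups share these. Each of the 4 groups had 2 libraries, and the labels do not say whether these came from separate embryos or pools, so the p-values measure only the spread between the libraries, which may be technical.

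Histone acetyltransferases move an acetyl group from acetyl-CoA to lysines of histones. This loosens the hold of the histone on DNA and marks promoters and enhancers for proteins that read acetyl-lysine, while histone deacetylases take the mark off. p300 (Ep300) and CBP (Crebbp) are broad coactivators at enhancers, and GCN5 (Kat2a) and PCAF (Kat2b) work in the SAGA and ATAC complexes. HAT1 acetylates newly made histone H4. The MYST enzymes (Kat5, Kat6a, Kat6b, Kat7 and Kat8) work in complexes of several subunits, and the KAT6 enzymes and KAT7 share partner subunits. NIR binds histones and keeps acetyltransferases from them, as do SET and ANP32 proteins. In epidermis, p300 and CBP assist the transcription factors that drive keratinocyte differentiation.

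The 3 members that changed at both stages were Kat6b, which rose, and Kat2a and Hat1, which fell. RefSeq gives a transcription start for each of them (GRCm38.p6), and the 250 bases before the first listed start are shown. Kat6b has 2 listed windows, and the one shown lies inside the gene, which begins at 21499216. The Kat2a and Hat1 windows lie at the start of their genes, so the regions shown are not alike. Capitals mark matches on either strand to the CCAAT box (CCAAT), the GC box (GGGCGG), the ETS core (CCGGAAG), the NRF1 motif or the TATA box (TATAAA).
Kat6b, chr14:21499520-21499769, plus strand: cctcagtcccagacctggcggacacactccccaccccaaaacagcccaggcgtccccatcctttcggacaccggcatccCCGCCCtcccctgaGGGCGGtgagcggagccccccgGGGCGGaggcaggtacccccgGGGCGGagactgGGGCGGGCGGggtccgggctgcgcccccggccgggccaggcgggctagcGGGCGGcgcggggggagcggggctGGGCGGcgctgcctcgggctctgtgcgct
Kat2a, chr11:100712468-100712717, minus strand: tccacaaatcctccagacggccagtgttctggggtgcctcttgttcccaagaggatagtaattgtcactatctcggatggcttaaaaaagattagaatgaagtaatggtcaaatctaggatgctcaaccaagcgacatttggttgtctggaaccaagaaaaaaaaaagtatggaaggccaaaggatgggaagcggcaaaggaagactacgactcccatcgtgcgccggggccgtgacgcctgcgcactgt
Hat1, chr2:71389010-71389259, plus strand: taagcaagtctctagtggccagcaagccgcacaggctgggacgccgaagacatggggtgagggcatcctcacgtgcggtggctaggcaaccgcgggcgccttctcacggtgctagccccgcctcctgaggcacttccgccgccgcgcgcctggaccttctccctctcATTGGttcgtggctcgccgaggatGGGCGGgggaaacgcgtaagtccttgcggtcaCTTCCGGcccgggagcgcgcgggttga

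The Kat6b window held 8 GC boxes, 2 of which overlap, and none of the other motifs. In the Hat1 window stood 1 GC box, 1 CCAAT box and 1 ETS core, and the Kat2a window held no match. Of all 32851 promoter windows of this length, 32.74% hold a GC box, 33.85% a CCAAT box, 6.91% an ETS core, 12.37% the TATA box letters and 0.78% the NRF1 letters. CpG dinucleotides numbered 27 in the windows of Kat6b and Hat1 and 11 in that of Kat2a, against a median of 6 over all windows. A window was found for 9 of the 10 members, which held 6 (Kat2b) to 44 (Crebbp) CpG dinucleotides. The Crebbp and Kat5 windows also lie inside their genes, as does most of the Kat2b window. The motif matches describe letters and say nothing of binding.

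Library totals were even, from 25226357 to 28895657 gene counts, and the Pearson correlation of replicates ran from 0.9856 to 0.9886 over log2 CPM of all genes, which are not independent replicates. CPM is the count relative to the TMM-scaled library total. Between the genotypes the cell markers differed widely. All 10 basal and all 10 suprabasal keratinocyte markers fell at both stages; the summed level of the basal markers was 7240 to 7710 CPM in E15.5 control libraries and 1990 to 2070 CPM in knockout libraries, and 7830 to 7840 against 1180 to 1220 CPM at E17.5. Dermal fibroblast markers rose, 10 of 10 at E15.5 and 9 of 10 at E17.5, from 30400 to 32200 CPM in controls to 75600 to 94100 CPM in knockouts at E15.5, and from 26200 to 30400 CPM to 96300 to 102000 CPM at E17.5. Endothelial (8 of 8 at both stages), myeloid (7 of 7 at both), erythroid (7 and 6 of 7) and skeletal muscle markers (6 and 7 of 7) rose too, as did 6 of 7 melanocyte markers at E15.5 and 2 of 7 at E17.5. No marker of these lists was at 0 in any group. The part of these shifts in the values of the acetyltransferases was not tested, and in bulk samples fewer cells of a type and less RNA per cell cannot be told apart. Noc2l itself, whose counts cover the whole transcript and so do not check the deletion, changed by -0.12 ± 0.10 at E15.5 (log2 fold change ± SE, edgeR, adjusted p = 0.33) and fell by 0.39 ± 0.10 at E17.5 (adjusted p = 0.0062, and 0.052 without E17.5 control replicate 2). The Noc2l transcript shares 598 of its 2785 exonic bases (21.5%) with Samd11 on the opposite strand, whose changes were -0.11 ± 0.13 (adjusted p = 0.51) and -0.56 ± 0.13 (adjusted p = 0.0034), and the part of Samd11 reads in the Noc2l count was not tested.

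Kat6b, the gene of the MORF enzyme that acetylates histone H3 and is needed for skeletal and brain development, had the largest rise of the 10 genes. It lies on chromosome 14 from 21499216 to 21672478. At E15.5 the controls held 54.9 and 56.7 CPM and the knockouts 79.3 and 82.0 CPM. At E17.5 the controls held 48.8 and 46.0 CPM and the knockouts 71.7 and 72.6 CPM. All 4 knockout libraries were above all 4 control libraries. The log2 fold change was 0.53 ± 0.09 at E15.5 (edgeR quasi-likelihood test, adjusted p = 0.00072, n = 2 per group) and 0.61 ± 0.09 at E17.5 (adjusted p = 0.00022), which is 1.45-fold and 1.52-fold. Both calls held under all 17 alternative settings, with changes from 0.51 to 0.56 at E15.5 and from 0.40 to 0.65 at E17.5.

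Its close relative Kat6a, which encodes MOZ, an enzyme that keeps Hox genes and stem cells active, lies on chromosome 8 from 22859442 to 22943259. It stood at 155 and 150 CPM in E15.5 controls and 146 and 143 CPM in E15.5 knockouts, and at 145 and 117 CPM in E17.5 controls and 134 and 129 CPM in E17.5 knockouts. The E15.5 groups did not overlap but differed little, and at E17.5 the knockout libraries lay between the control libraries. Its log2 fold changes were -0.07 ± 0.11 (adjusted p = 0.61, 95% interval -0.32 to 0.17) and 0.00 ± 0.11 (adjusted p = 0.98, -0.24 to 0.25). A change of the size seen in Kat6b lies outside both intervals.

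**Figure D1:**
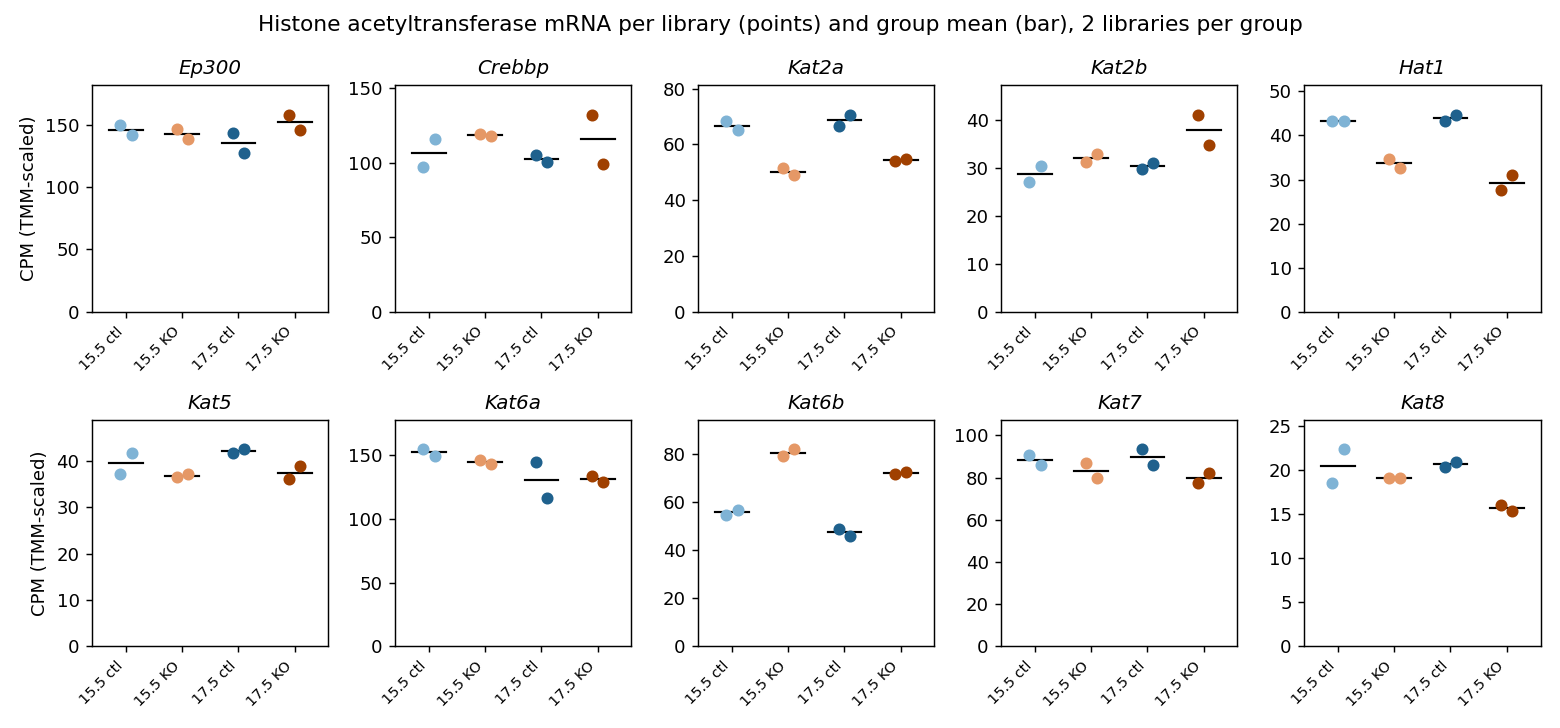
TMM-scaled CPM (linear axes from 0) of the 10 histone acetyltransferase genes in the 8 libraries, with points for libraries and bars for the mean of 2. Kat6b is at 79.3 and 82.0 CPM in E15.5 knockouts against 54.9 and 56.7 CPM in controls, and Hat1 and Kat2a are lower in all 4 knockout libraries than in all 4 control libraries.

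Kat2a encodes GCN5, the catalytic subunit shared by the SAGA and ATAC complexes, which acetylates histone H3 at promoters. The gene lies on chromosome 11 from 100704746 to 100712485. Its levels were 68.3 and 65.1 CPM in E15.5 controls against 51.5 and 48.9 CPM in knockouts, and 66.8 and 70.7 CPM in E17.5 controls against 54.2 and 55.0 CPM in knockouts. The highest knockout library stood below the lowest control library. Kat2a fell by 0.41 ± 0.10 on the log2 scale at E15.5 (adjusted p = 0.0045) and by 0.33 ± 0.09 at E17.5 (adjusted p = 0.011). The E15.5 call held under all 17 alternatives, and that at E17.5 was lost without E17.5 control replicate 2 (-0.29, adjusted p = 0.059) and without E17.5 knockout replicate 1 (-0.34, adjusted p = 0.054).

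Kat2b encodes PCAF, the enzyme that takes the place of GCN5 in some of these complexes. It lies on chromosome 17 from 53566774 to 53672721. Among the 10 genes it had the lowest level per length in every group. Its levels were 27.0 and 30.3 CPM in E15.5 controls, 31.1 and 32.8 CPM in E15.5 knockouts, 29.8 and 30.9 CPM in E17.5 controls and 41.1 and 34.8 CPM in E17.5 knockouts. The knockout libraries lay above the control libraries at each stage, with 1 high library at E17.5. At E15.5 the log2 fold change was 0.16 ± 0.12 (adjusted p = 0.31). At E17.5 it was 0.32 ± 0.12 (adjusted p = 0.042), a rise that passed narrowly and was lost in 10 of 17 alternatives. These include leaving out E17.5 knockout replicate 1 (0.18, adjusted p = 0.35), E17.5 control replicate 1 (0.30, adjusted p = 0.13) or 2 (0.35, adjusted p = 0.081), E15.5 knockout replicate 1 (0.30, adjusted p = 0.065) or 2 (0.30, adjusted p = 0.064), scaling by library totals (0.11, adjusted p = 0.49) and the DESeq2 test (0.33, adjusted p = 0.051).

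Hat1 encodes the enzyme that acetylates newly made histone H4 before it is laid down on DNA. It is found on chromosome 2 from 71389260 to 71441622. Levels were 43.3 CPM in both E15.5 control libraries and 34.7 and 32.6 CPM in E15.5 knockout libraries, and 43.4 and 44.8 CPM in E17.5 controls against 27.5 and 30.9 CPM in E17.5 knockouts. The control libraries lay close together at both stages, and all knockout libraries were lower. Hat1 fell by 0.36 ± 0.11 on the log2 scale at E15.5 (adjusted p = 0.016) and by 0.59 ± 0.11 at E17.5 (adjusted p = 7e-04), to 0.776 and 0.663 of the control level. The E17.5 call held under all 17 alternatives. The E15.5 call did not survive the omission of E15.5 control replicate 1 (-0.36, adjusted p = 0.062), E15.5 control replicate 2 (-0.37, adjusted p = 0.064) or E15.5 knockout replicate 2 (-0.32, adjusted p = 0.092).

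Kat8 encodes MOF, which acetylates histone H4 at lysines of active genes. The gene is on chromosome 7 from 127912517 to 127925838 and had the fewest counts of the 10, from 429 to 654 per library. Levels were 18.6 and 22.4 CPM in E15.5 controls and 19.1 CPM in both E15.5 knockouts, then 20.3 and 21 CPM in E17.5 controls and 16.0 and 15.4 CPM in E17.5 knockouts. The groups overlapped at E15.5 (-0.10 ± 0.13, adjusted p = 0.55) and not at E17.5, where Kat8 fell by 0.39 ± 0.13 (adjusted p = 0.023). The call was lost whichever of the 4 E17.5 libraries was omitted: the change became -0.42 (control replicate 1, adjusted p = 0.051), -0.37 (control replicate 2, adjusted p = 0.077), -0.44 (knockout replicate 1, adjusted p = 0.056) or -0.38 (knockout replicate 2, adjusted p = 0.088). The Kat8 transcript shares 122 of its 1579 exonic bases (7.73%) with exons of Prss8 on the opposite strand. Prss8, the gene of prostasin, a membrane protease of epidermal barrier formation, fell by 1.59 ± 0.18 at E15.5 and by 1.27 ± 0.19 at E17.5 (adjusted p = 3.5e-05 and 0.00016). Whether the counting used strand is not given in the sources used here, and the part of Prss8 reads in the Kat8 count was not tested.

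Kat5 and Kat7, of the same MYST family, did not pass the test at either stage. Kat5 encodes TIP60, the enzyme of the NuA4-type complex that acts in DNA repair, and lies on chromosome 19 from 5603014 to 5611556. Its levels were 37.2 and 41.6 CPM in E15.5 controls, 36.5 and 37.0 CPM in E15.5 knockouts, 41.6 and 42.4 CPM in E17.5 controls and 36 and 38.8 CPM in E17.5 knockouts. The knockout libraries were lower by little, with log2 fold changes of -0.10 ± 0.11 (adjusted p = 0.48, interval -0.33 to 0.14) and -0.17 ± 0.11 (adjusted p = 0.21, -0.40 to 0.07). Of its exonic bases, 426 of 2154 (19.8%) are shared with Rnaseh2c on the opposite strand, whose own changes were -0.32 ± 0.12 (adjusted p = 0.053) and -0.32 ± 0.12 (adjusted p = 0.042, and up to 0.12 in the alternatives). Kat5 has 5 transcript rows, and the row with the fewest counts held 47.0% to 55.8% of the count of the row used. Control and knockout shares overlapped at E15.5 (50.4% and 55.8% against 53.2% and 51.9%) but not at E17.5 (49.5% and 47.0% against 50.3% and 50.2%). The shares were not tested, and an exact test of 2 against 2 libraries cannot give a p below 0.333. Kat7 encodes HBO1, which acts at origins of replication and on histone H3, and lies on chromosome 11 from 95271853 to 95310246. It stood at 90.6 and 86.1 CPM in E15.5 controls, 86.9 and 79.6 CPM in E15.5 knockouts, 93.4 and 86.0 CPM in E17.5 controls and 77.2 and 82.0 CPM in E17.5 knockouts. Its groups overlapped at E15.5 but not at E17.5, and the changes were -0.09 ± 0.10 (adjusted p = 0.50, interval -0.30 to 0.13) and -0.17 ± 0.10 (adjusted p = 0.16, -0.38 to 0.04).

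The paired coactivator genes Ep300 and Crebbp were not called at either stage either. Ep300, on chromosome 15 from 81586209 to 81652077, was at 150 and 142 CPM in E15.5 controls, 146 and 139 CPM in E15.5 knockouts, 143 and 127 CPM in E17.5 controls and 158 and 145 CPM in E17.5 knockouts. The E15.5 groups interleaved, and the E17.5 knockout libraries were just above the controls. The log2 fold changes were -0.03 ± 0.10 (adjusted p = 0.80, interval -0.25 to 0.19) and 0.17 ± 0.10 (adjusted p = 0.18, -0.05 to 0.39). Crebbp, on chromosome 16 from 4081334 to 4213957, was at 97.2 and 116 CPM in E15.5 controls, 119 and 118 CPM in E15.5 knockouts, 105 and 100.3 CPM in E17.5 controls and 132 and 99.4 CPM in E17.5 knockouts. At E17.5 the knockout libraries lay on either side of the controls. Its changes were 0.15 ± 0.13 (adjusted p = 0.39, interval -0.15 to 0.44) and 0.17 ± 0.13 (adjusted p = 0.30, -0.12 to 0.47). The upper bounds of the Crebbp intervals come near the rise of Kat6b, so the p-values do not show that its level was the same.

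**Figure D2:**
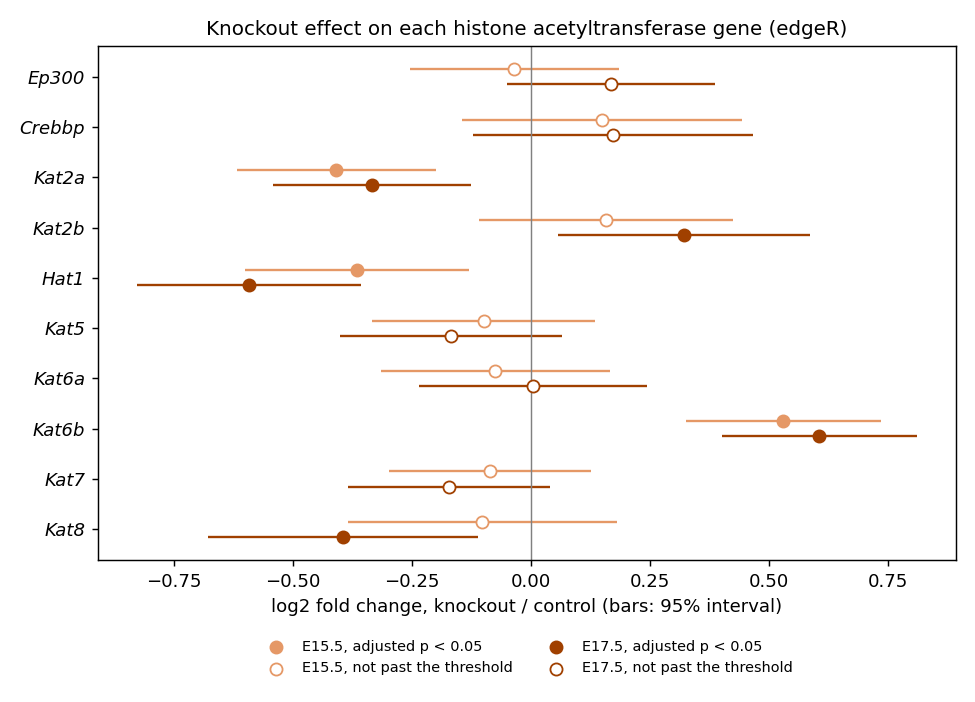
Log2 fold change of knockout over control for each of the 10 genes at E15.5 and E17.5, from the edgeR fit, with bars for the 95% interval and filled points for adjusted p below 0.05. Kat6b stands at 0.53 and 0.61, while Hat1 (-0.36 and -0.59) and Kat2a (-0.41 and -0.33) lie on the other side of 0.

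Across the 10 genes, 1 rose and 2 fell at E15.5, where 45.5% of all 16342 genes tested passed the threshold (23.2% higher and 22.3% lower). At E17.5, 2 rose and 3 fell, against 53.5% of all genes (26.7% higher and 26.7% lower). The E17.5 count of 5 was 3 without E17.5 control replicate 1 and 2 without E17.5 control replicate 2 or E17.5 knockout replicate 1. The members' shares of 30% and 50% are thus below or near the background, and the median log2 fold changes of the 10 genes, -0.08 at both stages, stood beside medians over all genes of -0.005 and -0.023. Libraries of the compared groups did not overlap for 7 of the 10 genes at E15.5 and 8 at E17.5, where 74.4% and 78.1% of all genes did not. With library totals as the only scaling, the median over all genes at E17.5 moved to -0.23, and 1 of the 10 genes rose and 5 fell, Kat5 (-0.38, adjusted p = 0.015) and Kat7 (-0.38, adjusted p = 0.006) among the latter. Of the called members, Kat6b, Kat2a, Kat8 and Hat1 kept their direction and call under this scaling, and Kat2b its direction only.

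The knockout effect was not shown to differ between the stages for any of the 10 genes: 0 passed the edgeR test of the difference, 0 had an unadjusted p below 0.05, and DESeq2 and limma-voom also called 0, where edgeR called 4.35% of all genes (1.88% higher and 2.47% lower). The largest differences, E17.5 effect minus E15.5 effect, were -0.29 ± 0.18 for Kat8 (adjusted p = 0.46) and -0.23 ± 0.15 for Hat1 (adjusted p = 0.49). Between E15.5 and E17.5 in control epidermis, 0 of the 10 genes passed edgeR (1 at an unadjusted p below 0.05; 0 by DESeq2 and by limma-voom) against 10.9% of all genes (3.15% higher and 7.7% lower); libraries did not overlap for 3 of the 10 genes and for 50.7% of all genes. The lowest value was that of Kat6b, at -0.24 ± 0.09 (adjusted p = 0.15), followed by Kat6a at -0.22 ± 0.11 (adjusted p = 0.27, and -0.39 with adjusted p = 0.046 without E17.5 control replicate 1). Between the stages in knockout epidermis 0 passed edgeR (0 at an unadjusted p below 0.05; 0 by DESeq2 and by limma-voom) against 13.1% of all genes (6.19% higher and 6.91% lower), with no overlap for 6 of the 10 genes and 56.2% of all genes, and with values from -0.28 ± 0.13 (Kat8) to 0.25 ± 0.12 (Kat2b). These comparisons share libraries with the knockout comparisons.

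Per kilobase of exonic transcript length, the order of the 10 genes in E15.5 control epidermis began with Hat1 (27.5 ± 0.004 CPM per kb, mean ± SD of 2 libraries), Kat7 (24.8 ± 0.89), Kat2a (21.9 ± 0.74), Kat5 (18.3 ± 1.45), Kat6a (16.7 ± 0.39) and Ep300 (15.2 ± 0.60). It ended with Kat8 (13 ± 1.69), Crebbp (9.86 ± 1.24), Kat6b (8 ± 0.19) and Kat2b (6.15 ± 0.51). The libraries of neighbours in this order did not overlap. In E15.5 knockouts Kat7 (23.4 ± 1.46) stood before Hat1 (21.4 ± 0.93), Kat5 (17.1 ± 0.16) before Kat2a (16.5 ± 0.58), and Kat6b (11.6 ± 0.28) before Crebbp (10.9 ± 0.07). The order in E17.5 controls was that of E15.5 controls, with overlap between the neighbours Kat6a and Ep300, Ep300 and Kat8, and Kat6b and Kat2b. In E17.5 knockouts Kat7 (22.4 ± 0.96) led Hat1 (18.5 ± 1.51), which overlapped with Kat2a (17.9 ± 0.18), and Kat2a with Kat5 (17.4 ± 0.92). Further down stood Ep300 (15.9 ± 0.94), Kat6a (14.4 ± 0.36), Crebbp (10.7 ± 2.15), which overlapped with Kat6b (10.3 ± 0.09), and then Kat8 (9.96 ± 0.27) and Kat2b (8.15 ± 0.96).

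A ratio between related enzymes within a library does not depend on how libraries are scaled. Per kilobase, Kat6a exceeded Kat6b 2.16- and 2.02-fold in E15.5 controls and 1.41- and 1.34-fold in E15.5 knockouts, and 2.28- and 1.94-fold in E17.5 controls and 1.43- and 1.36-fold in E17.5 knockouts. The ratio was lower in all 4 knockout libraries, by 0.61 on the log2 scale at E15.5 and 0.59 at E17.5. Kat2a exceeded Kat2b 3.87- and 3.28-fold in E15.5 controls, 2.53- and 2.28-fold in E15.5 knockouts, 3.43- and 3.50-fold in E17.5 controls and 2.02- and 2.42-fold in E17.5 knockouts, again with no overlap (log2 changes -0.57 and -0.65). Ep300 to Crebbp ratios overlapped, at 1.38 to 1.74 in E15.5 controls, 1.33 to 1.39 in E15.5 knockouts, 1.43 to 1.54 in E17.5 controls and 1.35 to 1.65 in E17.5 knockouts. An exact two-sided permutation test of genotype within the stages gave p = 0.0556 for the Kat6 pair and for the Kat2 pair, the smallest that 36 arrangements allow, and p = 0.556 for Ep300 to Crebbp (adjusted over the 3 pairs, 0.0834, 0.0834 and 0.556). No other test was run on the ratios, which were examined with the single gene results known.

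**Figure D3:**
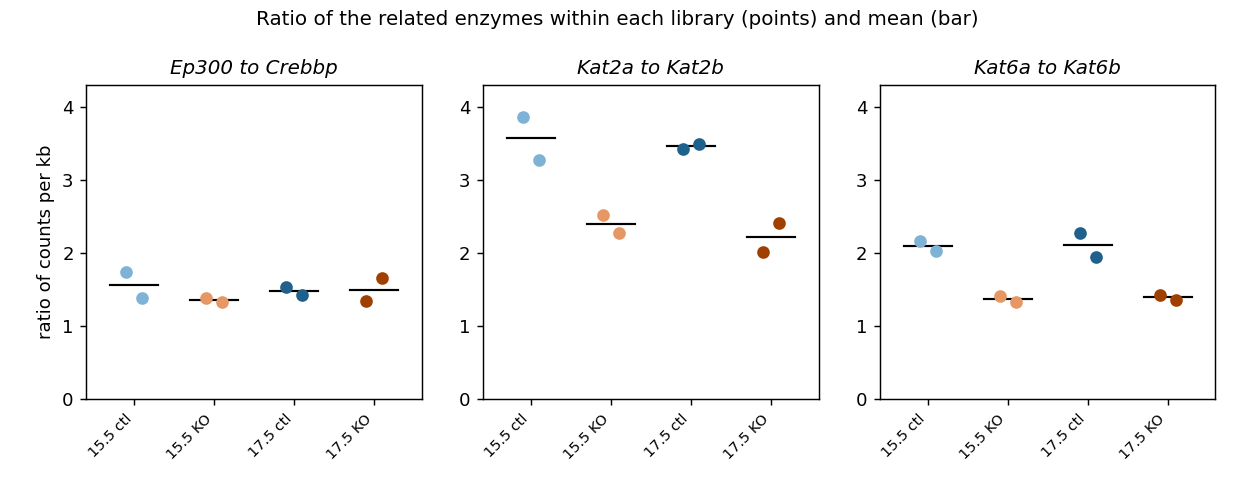
Ratio of counts per kilobase of related enzymes within each library, on linear axes from 0, with points for libraries and bars for means of 2. The Kat2a to Kat2b ratio runs from 3.28 to 3.87 in controls and from 2.02 to 2.53 in knockouts, the Kat6a to Kat6b ratio from 1.94 to 2.28 and from 1.34 to 1.43, and the Ep300 to Crebbp ratio overlaps between the genotypes.

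In the main edgeR test the other subunits of the acetyltransferase complexes changed in both directions, at shares below those of all genes (45.5% at E15.5 and 53.5% at E17.5). Of 22 SAGA and ATAC subunits, 1 rose and 3 fell at E15.5 (median log2 fold change -0.15), and 2 rose and 7 fell at E17.5 (median -0.22). The E17.5 count of 9 fell to 4 without E17.5 knockout replicate 1, and it reached 14 of 22 under an alternative other than leaving out a library. The E15.5 count of 4 fell to 0 without E15.5 control replicate 1 or E15.5 knockout replicate 2 and to 2 without E15.5 control replicate 2. Taf9, which encodes a histone-fold subunit shared with TFIID, fell at E17.5 from 65.2 ± 1.16 to 43.0 ± 1.31 CPM (-0.60 ± 0.10, adjusted p = 0.00034), and Sgf29, whose protein reads methylated histone H3, from 19.9 ± 2.13 to 12.8 ± 0.01 CPM (-0.64 ± 0.13, adjusted p = 0.002). Sf3b3, a subunit shared with the splicing machinery, fell too (-0.40 ± 0.10, adjusted p = 0.007). These calls at E17.5 held under all 17 alternatives. Supt3 rose at E17.5 (0.49, edgeR adjusted p = 0.032), a call lost in 5 of 17 alternatives. The E15.5 calls were less firm. Without 1 E15.5 library, Taf6l (-0.53 ± 0.15, adjusted p = 0.011) had an adjusted p of 0.06 (control replicate 1) or 0.099 (knockout replicate 2), and Supt3 (0.52 ± 0.17, adjusted p = 0.027) one of 0.11 (control replicate 1), 0.072 (control replicate 2) or 0.13 (knockout replicate 2). For Sgf29 (-0.40 ± 0.14, adjusted p = 0.031) it was 0.16 and 0.051 without control replicates 1 and 2, and 0.092 and 0.11 without knockout replicates 1 and 2.

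Of 16 other TIP60 complex subunits, 2 rose and 4 fell at E15.5 (median 0.00) and 1 rose and 4 fell at E17.5 (median -0.11), and 3 in all passed at E15.5 without E15.5 knockout replicate 2. Mbtd1, which encodes a reader of methylated histone H4, fell from 70.3 ± 6.06 to 48.8 ± 5.01 CPM at E15.5 (-0.53 ± 0.11, adjusted p = 0.0022) and from 65.6 ± 1.60 to 36.1 ± 0.47 CPM at E17.5 (-0.86 ± 0.11, adjusted p = 5.5e-05). Actl6a, the gene of an actin-related protein that keeps epidermal progenitors undifferentiated, fell at E17.5 from 54.7 ± 4.06 to 29.8 ± 1.84 CPM (-0.88 ± 0.12, adjusted p = 1e-04). Yeats4, which encodes the acetyl-lysine reader GAS41, fell by 0.55 ± 0.10 at E17.5 (adjusted p = 0.001) and by 0.40 ± 0.10 at E15.5 (adjusted p = 0.009, and 0.069 without E15.5 knockout replicate 2). Vps72, the gene of a chaperone of histone H2A.Z, fell by 0.42 ± 0.11 at E15.5 (adjusted p = 0.0075, and 0.058 without E15.5 knockout replicate 2). The calls of Mbtd1 at both stages and of Actl6a and Yeats4 at E17.5 held under all 17 alternatives. Actl6a also fell at E15.5 (-0.45 ± 0.12, edgeR adjusted p = 0.01) and Vps72 at E17.5 (-0.34, adjusted p = 0.02). Those calls were lost in 1 and 3 of 17 alternatives.

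Of 9 scaffold and reader subunits that partner KAT6 and KAT7, 1 rose and 2 fell at E15.5 (median -0.18) and 2 fell at E17.5 (median -0.10). Without E15.5 control replicate 2 or either E15.5 knockout replicate the E15.5 count was 1, and the E17.5 count was 0 without E17.5 control replicate 1 and 1 without E17.5 knockout replicate 1. Brd1, which encodes a scaffold of these enzymes, fell from 106 ± 0.42 to 80.4 ± 0.12 CPM at E15.5 (-0.40 ± 0.09, adjusted p = 0.0044, held under all 17 alternatives) and by 0.32 ± 0.09 at E17.5 (adjusted p = 0.013, 0.081 without E17.5 control replicate 1 and 0.077 without E17.5 knockout replicate 1). Jade3, a scaffold gene of KAT7 at 8.74 ± 2.14 CPM in controls, fell by 0.91 ± 0.22 at E17.5 (adjusted p = 0.0047, 0.055 without E17.5 control replicate 1). Ing4 fell (-0.33 ± 0.09, adjusted p = 0.013) and Brpf3 rose (0.27 ± 0.09, adjusted p = 0.032) at E15.5. Ing4 had an adjusted p of 0.054 without control replicate 2 and 0.055 without either knockout replicate at E15.5, and Brpf3 of 0.07 and 0.14 without E15.5 control replicates 1 and 2, 0.17 and 0.067 without E15.5 knockout replicates 1 and 2, and 0.057 without either E17.5 knockout replicate. Of 11 subunits of the KAT8 complexes, 0 passed edgeR at E15.5 (2 at an unadjusted p below 0.05; 0 by DESeq2 and by limma-voom), while 2 rose and 2 fell at E17.5 (median -0.03). In all 1 passed at E15.5 without E15.5 control replicate 2, and at E17.5 2 passed without either control replicate or knockout replicate 2 and 0 without knockout replicate 1. Msl2, a ubiquitin ligase subunit gene, fell (-0.41 ± 0.11, adjusted p = 0.0068), while Mcrs1 (0.46 ± 0.13, adjusted p = 0.011) and Kansl3 (0.33 ± 0.10, adjusted p = 0.017) rose. None of these 3 calls held under every alternative: without E17.5 knockout replicate 1 the adjusted p was 0.066, 0.11 and 0.072, it was 0.079 for Mcrs1 without E17.5 control replicate 1, and 0.064 and 0.10 for Kansl3 without E17.5 control replicate 2 and E17.5 knockout replicate 2. With library totals as the only scaling, Mcrs1 and Kansl3 had adjusted p of 0.15 and 0.34.

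**Figure D4:**
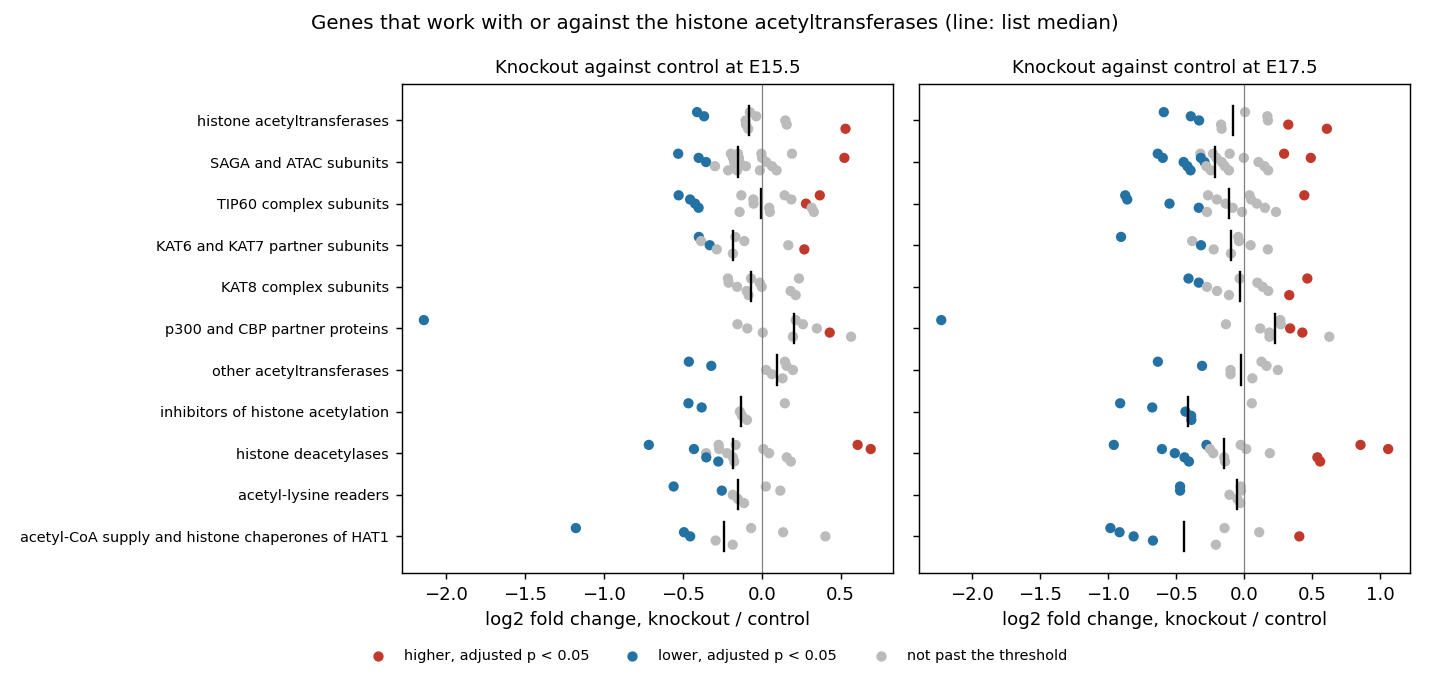
Log2 fold change of knockout over control at E15.5 and E17.5 for each tested gene of the 10 acetyltransferases and of 10 lists of genes that work with or against them, with 1 point per gene, coloured by the edgeR call, and a line at each list's median. The lowest point is Cited4 (-2.14 and -2.23). At E17.5 the lowest list median is -0.44, of the acetyl-CoA supply and histone chaperones of HAT1. The inhibitors of histone acetylation, a list that includes the deleted gene Noc2l, follow at -0.41.

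Among 10 partner proteins of p300 and CBP, 1 rose and 1 fell at E15.5 and 2 rose and 1 fell at E17.5, with medians of 0.21 and 0.22. That is 20% and 30% of the list, against 45.5% and 53.5% of all genes, and 1 of the 10 passed at E17.5 without E17.5 knockout replicate 1. Cited4, the gene of a transactivator that binds both coactivators, fell furthest, from 33.7 ± 1.17 to 7.64 ± 1.23 CPM at E15.5 (-2.14 ± 0.16, adjusted p = 1.4e-06) and from 20.1 ± 2.59 to 4.3 ± 0.54 CPM at E17.5 (-2.23 ± 0.17, adjusted p = 9.8e-07). Crtc3, a coactivator gene of the CREB factors, rose by 0.43 ± 0.11 at both stages (adjusted p = 0.0079, 0.069 without E15.5 control replicate 2, and adjusted p = 0.0068, 0.056 without E17.5 control replicate 1 and 0.076 without E17.5 knockout replicate 1). The nuclear receptor coactivator gene Ncoa1 rose at E17.5 (0.34 ± 0.09, adjusted p = 0.008, and 0.097 without E17.5 knockout replicate 1). With library totals as the only scaling, the E17.5 calls of Crtc3 and Ncoa1 were lost (adjusted p = 0.15 and 0.28). Of 8 other acetyltransferases tested, 25% passed at each stage, against 45.5% and 53.5% of all genes. These were 2 genes that fell at each stage, where 22.3% and 26.7% of all genes were lower. They were Naa40, which acetylates the ends of histones H4 and H2A (-0.46 ± 0.11, adjusted p = 0.0054, 0.061 without E15.5 control replicate 1, and -0.64 ± 0.11, adjusted p = 0.00053), and Nat10, which acetylates cytidines of RNA (-0.32 ± 0.11, adjusted p = 0.035, and -0.31 ± 0.11, adjusted p = 0.033). The Nat10 calls were lost without any 1 of the 4 E15.5 libraries (adjusted p = 0.067 to 0.16) and without E17.5 control replicate 1 (0.063) or 2 (0.11) or E17.5 knockout replicate 1 (0.19).

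Inhibitors of histone acetylation were measured through 6 genes, Noc2l among them. At E15.5, 2 of the 6 fell and 0 rose (33.3%, median -0.13), where 45.5% of all genes passed and 22.3% were lower. At E17.5, 5 of the 6 fell, the deleted gene being 1 of them, and 0 rose (83.3%, median -0.41). Of all genes, 53.5% passed at E17.5 and 26.7% were lower. The E17.5 count was 2 without E17.5 control replicate 2 and 3 without E17.5 knockout replicate 1, and the E15.5 count was 0 without E15.5 control replicate 1 or E15.5 knockout replicate 1 and 1 without E15.5 knockout replicate 2. Set encodes the protein after which inhibitors of acetyltransferases were first described. Its level was 116 ± 6.76 CPM in E15.5 controls and 83.9 ± 13 CPM in knockouts (-0.46 ± 0.12, adjusted p = 0.0067, 0.05 without E15.5 control replicate 1 and 0.068 without E15.5 knockout replicate 1). At E17.5 it was 144 ± 4.07 CPM in controls and 76.6 ± 4.83 CPM in knockouts (-0.91 ± 0.12, adjusted p = 5.1e-05). Anp32e, the gene of a chaperone that removes histone H2A.Z, fell by 0.38 ± 0.12 at E15.5 (adjusted p = 0.019, from 0.061 to 0.16 without E15.5 control replicate 1 or either E15.5 knockout replicate) and by 0.68 ± 0.12 at E17.5 (adjusted p = 0.00048). Anp32a and Anp32b, partners of SET, fell at E17.5 by 0.39 ± 0.13 and 0.43 ± 0.12 (adjusted p = 0.026 and 0.012). They were singled out after their values were seen, and their calls were lost without E17.5 control replicate 2 (adjusted p = 0.23 and 0.11) and without E17.5 knockout replicate 1 (0.19 and 0.10). Eid1, the remaining gene of the list, was not called at either stage (0.15 ± 0.12 at E15.5, edgeR adjusted p = 0.34). The E17.5 calls of Set and Anp32e held under all 17 alternatives. In the same libraries basal keratinocyte markers were lower (summed level 1180 to 1220 against 7830 to 7840 CPM), and their part in these values was not tested.

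Histone deacetylases take off what the acetyltransferases put on. At E15.5, 2 of 17 rose and 4 fell (median -0.18), which is 35.3% against 45.5% of all genes, and 3 in all passed without E15.5 control replicate 1. At E17.5, 4 rose and 6 fell (median -0.15), which is 58.8% against 53.5% of all genes. Hdac1, a class I enzyme of the SIN3 and NuRD complexes, fell from 47.7 ± 6.02 to 29.0 ± 1.74 CPM at E15.5 (-0.72 ± 0.13, adjusted p = 0.00075) and from 51.3 ± 5.57 to 26.4 ± 0.63 CPM at E17.5 (-0.96 ± 0.13, adjusted p = 6.8e-05). The class I genes Hdac2 and Hdac3, named after their values were seen, fell at E17.5 by 0.61 ± 0.11 (adjusted p = 0.00086) and 0.44 ± 0.10 (adjusted p = 0.0023). The class IIa gene Hdac7, which endothelial cells and lymphocytes express, rose from 79.5 ± 1.76 to 128 ± 13.3 CPM at E15.5 (0.69 ± 0.11, adjusted p = 0.00033) and from 77.8 ± 8.31 to 141 ± 3.32 CPM at E17.5 (0.85 ± 0.11, adjusted p = 5.1e-05). Hdac9, a class IIa gene of muscle and lymphoid cells, rose at E17.5 from 8.49 ± 1.47 to 17.6 ± 2.58 CPM (1.06 ± 0.17, adjusted p = 0.00034). Hdac5, of the same class, fell at E15.5 (-0.43 ± 0.09, adjusted p = 0.0032). All of these calls held under all 17 alternatives. At E15.5 Hdac9 also rose (0.61 ± 0.17, edgeR adjusted p = 0.014) and Hdac3 fell (-0.27 ± 0.10, adjusted p = 0.035). Those E15.5 calls of Hdac9 and Hdac3 were lost in 2 and 5 of 17 alternatives. The class I genes Hdac2 (-0.18 ± 0.11, adjusted p = 0.21) and Hdac8 (-0.35 ± 0.23, adjusted p = 0.25) were not called at E15.5. In the same libraries the summed endothelial markers were at 507 to 513 CPM in E15.5 controls and 835 to 844 CPM in knockouts, and at 450 to 466 and 806 to 826 CPM at E17.5, and the summed muscle markers were at 7780 to 9710 and 14200 to 14400 CPM, then at 8180 to 9160 and 18600 to 25000 CPM. Their part in the rises of Hdac7 and Hdac9 was not tested.

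Of 7 genes of acetyl-lysine readers, 2 fell and 0 rose at each stage (28.6%, medians -0.15 and -0.05). Of all genes, 45.5% and 53.5% passed in either direction, and 22.3% and 26.7% were lower. Mllt1, which encodes the YEATS-domain reader ENL, fell by 0.56 ± 0.10 at E15.5 and by 0.47 ± 0.10 at E17.5 (adjusted p = 0.0011 and 0.0026). Brd7, a bromodomain subunit gene of a SWI/SNF complex, fell by 0.47 ± 0.09 at E17.5 (adjusted p = 0.0014). At E15.5 Brd7 stood at -0.25 ± 0.09 (adjusted p = 0.048), a call lost in 12 of 17 alternatives, with adjusted p of 0.21 and 0.066 without E15.5 control replicates 1 and 2, 0.19 and 0.10 without E15.5 knockout replicates 1 and 2, and 0.073 and 0.074 without E17.5 knockout replicates 1 and 2.

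The last list held the enzymes that supply acetyl-CoA and the histone chaperones that work with HAT1, of which 3 of 8 fell at E15.5 (median -0.24) and 4 fell and 1 rose at E17.5 (median -0.44). These shares of 37.5% and 62.5% stand beside 45.5% and 53.5% of all genes. The E15.5 count was 1 without E15.5 control replicate 1 or E15.5 knockout replicate 1, and the E17.5 count was 3 without E17.5 knockout replicate 1. Acly, the gene of the citrate lyase that makes nuclear and cytosolic acetyl-CoA, fell from 344 ± 10.3 to 152 ± 0.25 CPM at E15.5 (-1.18 ± 0.12, adjusted p = 1.5e-05) and from 300 ± 32.6 to 171 ± 22.5 CPM at E17.5 (-0.81 ± 0.12, adjusted p = 0.00016). Nasp, which encodes a chaperone of histones H3 and H4, fell at E17.5 from 97.6 ± 6.66 to 49.3 ± 3.67 CPM (-0.99 ± 0.12, adjusted p = 4.4e-05). Asf1a, whose protein hands these histones on for assembly, fell from 23.3 ± 3.10 to 12.3 ± 0.27 CPM (-0.92 ± 0.13, adjusted p = 0.00015). At E15.5 their changes were -0.49 ± 0.12 for Nasp (adjusted p = 0.0066, 0.071 without E15.5 control replicate 1 and 0.059 without E15.5 knockout replicate 1) and -0.45 ± 0.13 for Asf1a (adjusted p = 0.017, 0.052 to 0.076 without any 1 of the 4 E15.5 libraries). The difference between the stages did not pass for either gene (adjusted p = 0.15 for Nasp and 0.22 for Asf1a). Hat1 fell in the same comparisons (-0.36 and -0.59).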

How the data were processed

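The authors deposited raw counts for each RefSeq transcript in each library. Per the series design text and the submitters' processing notes, reads were aligned to mm10 with TopHat2 and counted with HOMER, and differential genes were called with edgeR. Not given in the sources used here were the HOMER version, its strand setting and its treatment of multi-mapping reads. Of 30521 transcripts, 29908 were named from the RefSeq table of GRCm38.p6 and 182 from GENCODE M21. The 431 unnamed rows, 2.08% of counts, were left out. Exonic lengths are those of the matching GENCODE transcripts. Tables joining the libraries of a stage have no column names and were not used.

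Counts were tested with edgeR 4.0.16 in R 4.3.3 (filterByExpr, TMM, quasi-likelihood, 1 mean per group, all 8 libraries), with Benjamini-Hochberg adjustment over 16342 genes and a threshold of 0.05. Standard errors came from the log2 fold change and its F statistic. CPM uses TMM-scaled totals. The fit was tested on simulated counts in which few genes changed, unlike in these data, so that test does not check the scaling. Alternatives were other scalings, DESeq2 1.42.0, voom in limma 3.58.1, other filters, summed transcripts, only the groups compared, a replicate block and leaving out each library. The members and lists were chosen with earlier results of these data known. The naming rule took all 10 members and, of each list and knockout comparison, up to 3 genes past the threshold with the smallest adjusted p. Of the list genes, Taf1 and Cd68 had no row under those names.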

Additional observations from a re-analysis of the deposited data

How the results depend on the processing

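The 10 acetyltransferase genes gave 840 values in 5 comparisons under 9 other settings and 8 omissions of a library, of which 785 kept their direction and side of the threshold, 19 lost a call, 3 gained one and 33 changed sign, the last all from values that had not passed the threshold. Kat6b at both stages, Kat2a at E15.5 and Hat1 at E17.5 kept their call throughout. With library totals as the only scaling, which lowers the median over all genes at E17.5 to -0.235, the E17.5 values of Ep300, Crebbp and Kat6a became -0.0428, -0.0402 and -0.2055. The stage differences of the knockout effect became -0.0097 (Ep300), -0.1939 (Crebbp), -0.1379 (Kat2a), -0.0547 (Kat2b), -0.1334 (Kat6a) and -0.1406 (Kat6b), and the stage contrasts in controls 0.0788 (Ep300) and 0.1378 (Crebbp). With no filter on low counts Kat6a stood at -0.0218 at E17.5. Leaving out 1 library at a time, with the lone library of a group assumed to vary like the others, gave 2 to 5 called members at E17.5 and 0 to 1 in the stage contrast of controls. Over all genes the calls ran from 379 to 715 for the stage difference, from 669 to 1775 between stages in controls and from 1159 to 2280 in knockouts. Signs turned within these ranges: at E15.5 Ep300 -0.08 to 0.0056 and Kat8 -0.229 to 0.038; at E17.5 Crebbp -0.0695 to 0.346 and Kat6a -0.145 to 0.17; for the stage difference Crebbp -0.216 to 0.20, Kat5 -0.151 to 0.011 and Kat6a -0.07 to 0.245. Between stages in controls Crebbp ran from -0.176 to 0.081, Kat7 from -0.038 to 0.081 and Kat8 from -0.116 to 0.151, and in knockouts Crebbp from -0.258 to 0.158 and Kat5 from -0.034 to 0.071. The cause of these turns was not tested. Replicate numbers did not pair the samples (correlations of deviations from -0.07 to 0.043), and with a replicate block 3 members were called at E15.5, 4 at E17.5 and 0 for the stage difference, where edgeR called 7326, 8598 and 770 of all genes. The stage difference could not be fitted on only the groups compared, since it needs all 4. The ratio alternatives were chosen after seeing the data: leaving out 1 library moved the Ep300 to Crebbp log2 change at E15.5 between -0.359 and -0.022 and the Kat6a to Kat6b change at E17.5 between -0.708 and -0.48.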
